A study of Mus musculus with 8 samples.

Results

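In all, 42 genes of skeletal muscle fibres were followed in the skin of E17.5 mouse embryos, sampled at full thickness. They encode the proteins that build, excite and fuel the fibre, and the transcription factors that specify it. They were taken by symbol from the transcript clusters (groups of probes that read 1 transcript) to which the platform annotation gives exactly 1 gene, and all 42 were found, each on a single cluster, among 19938 named genes. A filter on dim clusters, described with the processing, was passed by 41 of the 42. The regulatory light chain gene Myl2 lay under it on all 8 arrays and was not tested. The arrays were single-colour Affymetrix whole-transcript arrays, 1 per RNA. There were 4 RNAs from embryos labelled PPARgamma wildtype, called control here, and 4 from embryos labelled PPARgamma null (PpargΔ/Δ), called labelled-null here. All embryos were of a mixed C57BL6/SV129 background, and no treatment is named. Pparg encodes PPARgamma, the nuclear receptor required for adipocyte differentiation. The labels do not say how the allele was made, which part of the gene it lacks, or the litter and sex of each embryo. The p-values therefore set group differences against the spread between these RNAs only. They treat the embryos as independent, which cannot be checked without the litters.

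Mouse skin carries a thin sheet of striated muscle, the panniculus carnosus, beneath the dermis and its fat layer. Its fibres form in the embryo when the transcription factors of the MyoD family turn myoblasts into fusing, contractile cells. Newly formed fibres use developmental myosins, and fibres also use slow or fast isoforms of myosin, troponin and their partners, which set how quickly they contract. Of the members, Myh3, Myh8 and Chrng are counted here as developmental; Myh7, Myl2, Myl3, Tnnc1, Tnni1, Tnnt1 and Mybpc1 as slow; Myh1, Myh2, Myh4, Myl1, Mylpf, Tnnc2, Tnni2, Tnnt3, Actn3, Mybpc2 and Atp2a1 as fast; and the other 21 belong to no isoform class. A log2 value on such an array measures 1 cluster and cannot be set against the value of another cluster. Isoforms are therefore compared here by their differences between groups and by their deviations from their own mean over the 8 arrays. In whole skin, fewer muscle cells and less RNA per muscle cell cannot be told apart.

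Markers of skeletal, cardiac and smooth muscle were read on the same arrays. The 10 skeletal markers are themselves members, so they are no independent check of the gene set's label. All 10 skeletal muscle markers listed (Acta1, Ckm, Myh3, Myh8, Mylpf, Tnnt3, Ttn, Myod1, Myog and Chrng) passed the filter, as did 5 of 5 cardiac and 6 of 6 smooth muscle markers, so passing the filter does not by itself show that a tissue is present. The summed log2 value of the 10 skeletal markers ran from 104.3 to 106.2 on control arrays and from 103.4 to 107.0 on labelled-null arrays. That of the 5 cardiac markers ran from 30.9 to 31.3 and from 30.8 to 31.5, and that of the 6 smooth muscle markers from 50.01 to 50.7 and from 49.0 to 51.5. These sums cover different clusters, so each can be compared between arrays but not with the sum of another tissue. The files do not show whether the fibres lay in the panniculus or in deeper muscle taken with the skin. The Pparg cluster read 8.94 ± 0.13 on control and 9.12 ± 0.10 on labelled-null arrays (log2, SD, n = 4 each), so it was not lower under the null label, and all directions below refer to the labels. On the first principal component of all tested genes, labelled-null array 4 scored -22.8 and control array 1 scored -9.62, against -0.95 to 8.96 on the other 6. Pairs of arrays correlated at 0.989 to 0.994 over all clusters, and 0 pairs were identical.

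The promoters below are shown as examples of the sequence in front of members with different roles and different courses over the arrays. They belong to Myog, a transcription factor of the family, to Mybpc2, the fast gene that varied most, to Myh3, the embryonic myosin, and to Myh7, the slow myosin. Capitals mark the E-box, CANNTG, the hexamer that MyoD family proteins bind, which reads the same on both strands. Each sequence is the 250 bases before the start, 5′ to 3′ along the transcript, from RefSeq's GRCm38.p6 table.
Myog: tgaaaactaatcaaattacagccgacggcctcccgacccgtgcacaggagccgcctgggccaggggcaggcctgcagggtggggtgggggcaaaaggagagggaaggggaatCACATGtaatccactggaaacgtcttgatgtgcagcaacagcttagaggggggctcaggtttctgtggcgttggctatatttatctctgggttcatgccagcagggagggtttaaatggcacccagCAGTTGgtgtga
Mybpc2: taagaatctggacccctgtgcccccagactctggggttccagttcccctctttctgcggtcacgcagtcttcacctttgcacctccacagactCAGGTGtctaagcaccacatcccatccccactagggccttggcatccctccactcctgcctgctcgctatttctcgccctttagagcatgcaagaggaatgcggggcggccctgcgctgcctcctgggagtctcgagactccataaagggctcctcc
Myh3: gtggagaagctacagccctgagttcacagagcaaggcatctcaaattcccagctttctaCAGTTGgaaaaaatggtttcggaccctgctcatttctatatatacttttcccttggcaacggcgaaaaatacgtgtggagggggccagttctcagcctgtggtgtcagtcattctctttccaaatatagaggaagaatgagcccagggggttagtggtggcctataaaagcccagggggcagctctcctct
Myh7: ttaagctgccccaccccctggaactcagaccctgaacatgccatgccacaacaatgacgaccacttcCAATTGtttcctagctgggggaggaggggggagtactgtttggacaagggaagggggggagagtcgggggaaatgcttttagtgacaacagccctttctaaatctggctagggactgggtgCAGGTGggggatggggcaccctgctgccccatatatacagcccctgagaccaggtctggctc
These windows lie at chr1:134289754-134290003, plus strand (Myog), chr7:44524670-44524919, minus strand (Mybpc2), chr11:67078050-67078299, plus strand (Myh3) and chr14:54994550-54994799, minus strand (Myh7, 1 of 2 listed starts). Myog and Myh7 held 2 E-boxes each, and Mybpc2 and Myh3 held 1. The table gave 41 such windows for 35 of the 42 members, and 35 of the 41 windows (85.4%) held at least 1 E-box, against 66.2% of 32851 windows of the same length in all genes. A match to the MEF2 consensus, searched on both strands, was found in 4 member windows (9.76%), those of Myh1, Myh4, Myh8 and Ttn, against 2.92% of all windows. Some genes have several overlapping windows, and a match, or the lack of one, is only a description of the letters. Sites that depart from the consensus were not counted.

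No single muscle gene separated the labelled groups. By limma with Benjamini-Hochberg adjustment over 15174 genes, 0 of the 41 tested members passed an adjusted p of 0.05, where 0.119% of all tested genes passed (0.112% lower and 0.00659% higher under the null label). At an unadjusted p under 0.05 there was 1 of 41, the slow myosin Myh7, against 3.61% of all tested genes. Groups overlapped for all 41, and 2.45% of all tested genes had groups that did not overlap. With shares this small over all genes, counts of 0 among 41 do not set the members apart from other genes. On the labelled-null arrays 21 members lay above and 20 below control, with a median log2 difference of 0.00 and a mean of 0.02, beside a median of -0.000576 over all tested genes. Differences ran from -0.36 for Actn3 to 0.39 for Myh7, and 29 of 41 were smaller than 0.1 in size. The 95% confidence interval lay inside ±0.5, or 1.41-fold, for 36 of 41 members, and the other 5 allow larger differences. The median difference became -0.07 when labelled-null array 3 was left out and 0.09 when labelled-null array 4 was, so its sign rested on single arrays.

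**Figure D1:**
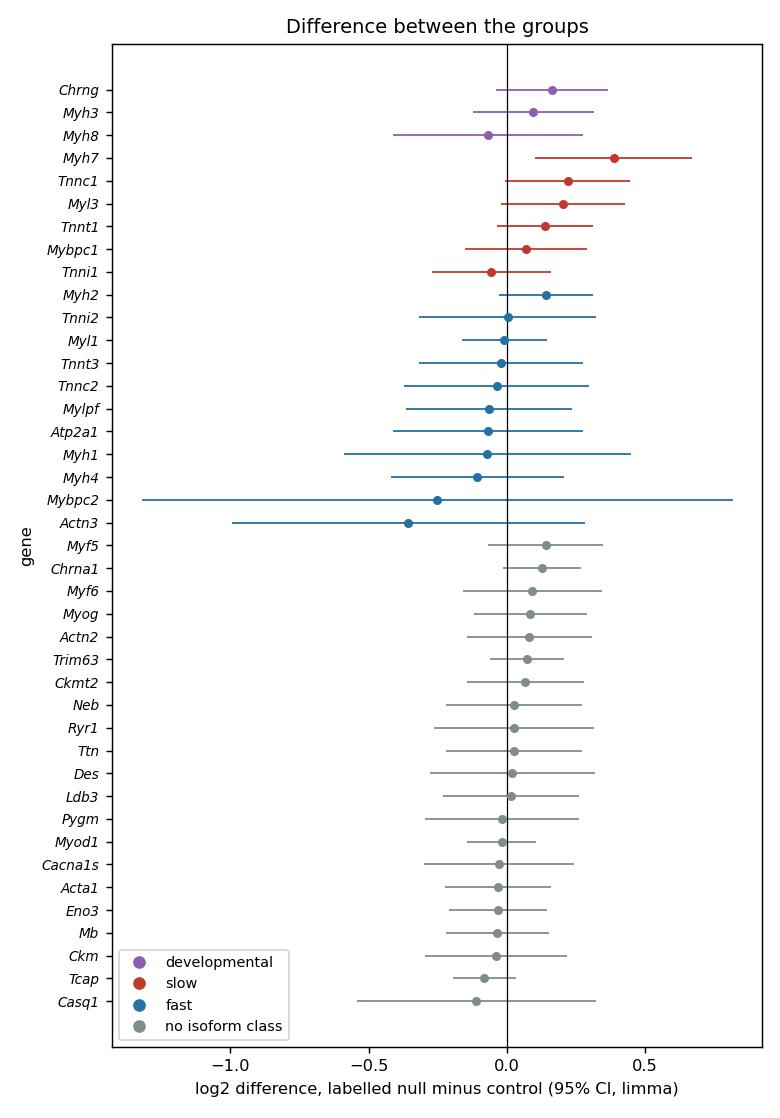
Log2 difference between labelled-null and control arrays (horizontal axis) for each of the 41 tested members (vertical axis), with the 95% confidence interval from limma, 4 arrays per group; colours give the isoform class. The interval of Myh7 alone, 0.10 to 0.67, excludes 0, and that of Mybpc2 is the widest, from -1.32 to 0.82.

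The transcription factors of the MyoD family differed little between groups. Myod1, which commits cells to the muscle lineage, read 7.46, 7.58, 7.46 and 7.53 on control arrays 1 to 4 and 7.47, 7.41, 7.59 and 7.48 on labelled-null arrays 1 to 4. All 8 values lay within 0.18 on the log2 scale, and the groups overlapped fully. Myog, myogenin, which drives myoblasts into differentiation, read 7.78, 7.86, 7.41 and 7.65 on control and 7.71, 7.72, 7.75 and 7.86 on labelled-null arrays. Control array 3 was the low value there. The difference of Myog was 0.09 (SE 0.09, limma adjusted p = 0.9995). Myf6, or MRF4, the family member of late differentiation, ran from 9.26 to 9.76, and Myf5, the family member that acts earliest in many muscle precursors, from 5.78 to 6.25. Both were highest on labelled-null array 3, and their differences were 0.09 and 0.14. Myf5 and Myf6 are direct neighbours in the genome.

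Of the myosin heavy chains, the motor proteins of the thick filament, the developmental isoforms varied from embryo to embryo, and their groups overlapped. Myh3, embryonic myosin, read 11.14, 11.34, 11.11 and 11.05 on control arrays and 11.50, 11.09, 11.31 and 11.13 on labelled-null arrays. Labelled-null arrays 1 and 3 and control array 2 were high. The means were 11.16 ± 0.13 and 11.26 ± 0.19 (log2, SD, n = 4 each). Myh8, perinatal myosin, read 11.63, 12.00, 12.01 and 11.92 on control arrays and 12.02, 11.63, 12.18 and 11.47 on labelled-null arrays. Control array 1 and labelled-null arrays 2 and 4 were low, below all other arrays. Its difference was -0.07 (SE 0.15, limma adjusted p = 0.9995).

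Myh7, the slow myosin, was the member with the largest positive difference. It read 8.77, 8.50, 8.39 and 8.31 on control arrays and 8.73, 9.04, 8.64 and 9.11 on labelled-null arrays. Labelled-null arrays 2 and 4 were the highest, and control array 1 lay above labelled-null arrays 1 and 3, so the groups overlapped. The difference was 0.39, or 1.31-fold (95% confidence interval 0.10 to 0.67, limma adjusted p = 0.9995), which does not pass over all genes. It ran from 0.31 to 0.48 when 1 array was left out. Myh6, the cardiac myosin that directly neighbours Myh7 and resembles it closely, read 5.66 to 5.98 on all 8 arrays with a difference of -0.01. It lay near the filter, which it exceeded on 7 of the 8 arrays, so this small difference says little.

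The adult fast myosins, Myh1 (type IIx), Myh2 (type IIa) and Myh4 (type IIb), lie beside Myh3 and Myh8 on chromosome 11, with no other protein-coding gene between any neighbouring pair. Their sequences are alike, and the files do not show how probes shared between paralogs were handled, so each value may carry some signal of another. Myh1 read 6.51, 6.76, 6.98 and 6.93 on control arrays and 6.51, 6.49, 7.53 and 6.37 on labelled-null arrays. Labelled-null array 3 stood well above the other 7. Myh4 read 6.16, 6.38, 6.19 and 6.33 on control arrays and 6.02, 5.92, 6.63 and 6.06 on labelled-null arrays. Again labelled-null array 3 was the highest. Myh2 read 5.94, 6.08, 6.11 and 6.04 on control arrays and 6.17, 5.98, 6.29 and 6.29 on labelled-null arrays, and was tied for highest on labelled-null arrays 3 and 4. The lowest values of Myh4 and Myh2, 5.92 and 5.94, lay near the filter, which was at 5.62 to 5.67 over the arrays. The differences were -0.07, -0.11 and 0.14 for Myh1, Myh4 and Myh2 (limma adjusted p = 0.9995 for each).

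**Figure D2:**
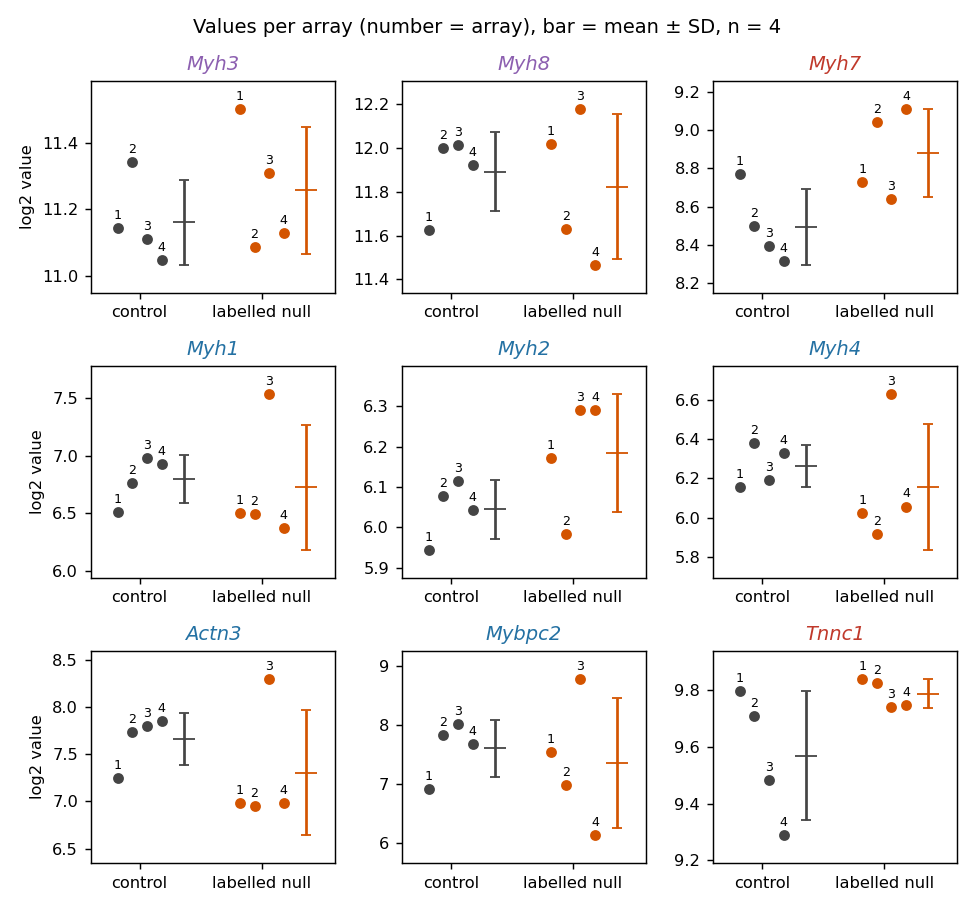
Log2 values of the 6 myosin heavy chains, of the fast genes Actn3 and Mybpc2 and of the slow troponin Tnnc1, by group; each point is 1 array with its number, and the bar is the mean ± SD of 4 arrays. Labelled-null array 3 is the highest for Myh1, Myh4, Actn3 and Mybpc2, and labelled-null arrays 2 and 4 are the highest for Myh7.

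The myosin light chains, which steady the lever arm of the motor, divided in the same way. The fast chains Myl1 and Mylpf were highest on labelled-null array 3 (12.75 and 10.65) and lowest on labelled-null array 4 (12.44 and 9.98), with differences of -0.01 and -0.06. Myl3, the essential chain of slow and ventricular muscle, read 7.25, 7.09, 6.76 and 6.88 on control arrays and 7.07, 7.26, 7.25 and 7.22 on labelled-null arrays. Control arrays 3 and 4 were low, the other 6 lay close together, and the difference was 0.20 (SE 0.10, limma adjusted p = 0.9995). Myl2, untested, read 5.14 to 5.45.

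The troponins are the calcium switch of the thin filament, with a calcium-binding subunit (Tnnc), an inhibitory subunit (Tnni) and a subunit that anchors to tropomyosin (Tnnt), each in a slow and a fast form. Fast Tnnc2 read 10.88, 11.29, 11.26 and 11.05 on control arrays and 11.25, 10.95, 11.42 and 10.72 on labelled-null arrays. Slow Tnnc1, also the cardiac form, read 9.80, 9.71, 9.48 and 9.29 on control arrays and 9.84, 9.82, 9.74 and 9.75 on labelled-null arrays. The labelled-null arrays lay close together for Tnnc1, while control arrays 3 and 4 were low. Its difference was 0.22 (SE 0.10, limma adjusted p = 0.9995).

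Fast Tnni2 read 10.19, 10.54, 10.49 and 10.35 on control arrays and 10.55, 10.26, 10.75 and 10.04 on labelled-null arrays. Its slow counterpart Tnni1 read 9.19, 9.34, 9.17 and 8.92 on control arrays and 9.29, 9.001, 8.98 and 9.11 on labelled-null arrays. Labelled-null array 3, highest for Tnni2, was next to lowest for Tnni1. Fast Tnnt3 read 11.59, 11.81, 11.73 and 11.73 on control arrays and 11.84, 11.55, 12.04 and 11.34 on labelled-null arrays. Slow Tnnt1 read 9.79, 9.86, 10.05 and 9.69 on control arrays and 10.01, 9.91, 10.06 and 9.96 on labelled-null arrays. All 3 fast troponins were lowest on labelled-null array 4, and all 3 slow troponins were lowest on control array 4. The differences of the 6 troponins ran from -0.06 to 0.22.

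Among the proteins of the sarcomere's framework, a pair of fast-fibre genes had the widest spread. Mybpc2, the fast myosin-binding protein C, read 6.92, 7.83, 8.01 and 7.69 on control arrays and 7.54, 6.98, 8.78 and 6.14 on labelled-null arrays. Labelled-null array 3 was the highest and array 4 the lowest of all 8, a span of 2.64 on the log2 scale or 6.23-fold, and 0.112% of all tested genes had a larger span. Actn3, the alpha-actinin of fast Z-discs, read 7.25, 7.74, 7.80 and 7.85 on control arrays and 6.99, 6.95, 8.30 and 6.99 on labelled-null arrays. Labelled-null arrays 1, 2 and 4 lay below all control arrays, and labelled-null array 3 lay above them all. Its difference was -0.36 (SE 0.29, limma adjusted p = 0.9995), and without labelled-null array 3 it was -0.69 (adjusted p = 0.272). The adjusted p of Actn3 over all alternatives ran from 0.272 to 0.99996.

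The framework genes used by all fibre types moved less. Acta1, skeletal alpha-actin of the thin filament, read 12.55, 12.76, 12.72 and 12.61 on control arrays and 12.71, 12.55, 12.81 and 12.44 on labelled-null arrays. Such bright clusters lie near the top of the scale, where arrays can compress differences. Differences were at most 0.08 in size for Actn2 (the common Z-disc alpha-actinin), Des (desmin, the intermediate filament), Ldb3 (a Z-disc scaffold), Neb (nebulin, the thin filament ruler) and Ttn (titin, the molecular spring), and all 5 were highest on labelled-null array 3. Their values ran from 11.64 to 12.02 for Actn2, 11.13 to 11.76 for Des, 9.69 to 10.18 for Ldb3, 11.27 to 11.81 for Neb and 11.39 to 11.88 for Ttn. Actn2 was nearly as high on labelled-null array 1, reading 12.02 on both. Mybpc1, the slow-type binding protein, ran from 10.88 to 11.30 and differed by 0.07. Tcap, telethonin, which caps titin at the Z-disc, ran from 6.39 to 6.57, with a difference of -0.08.

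Genes of nerve contact and calcium release showed both behaviours. Chrng, the gamma subunit of the fetal acetylcholine receptor, read 8.48, 8.44, 8.13 and 8.10 on control arrays and 8.44, 8.45, 8.42 and 8.48 on labelled-null arrays. Control arrays 3 and 4 were low and the other 6 lay close together. Chrna1, the receptor's alpha subunit, likewise read 7.86 to 7.91 on labelled-null arrays and 7.61 to 7.90 on control arrays. The differences were 0.16 for Chrng and 0.13 for Chrna1 (limma adjusted p = 0.9995 for both). Casq1, the calcium buffer of the sarcoplasmic reticulum, read 10.19, 10.59, 10.65 and 10.34 on control arrays and 10.46, 10.09, 10.87 and 9.91 on labelled-null arrays. Labelled-null array 3 was the highest and array 4 the lowest. The calcium pump Atp2a1 (10.80 to 11.57), the release channel Ryr1 (9.06 to 9.70) and the voltage sensor Cacna1s (8.26 to 8.84) had their extremes on the same 2 arrays. Their differences lay between -0.11 and 0.02.

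The energy genes followed the contractile ones. Ckm, muscle creatine kinase, read 11.93, 12.17, 12.13 and 12.21 on control arrays and 12.18, 11.94, 12.36 and 11.82 on labelled-null arrays. Labelled-null array 3 was the highest and array 4 the lowest, a span of 0.54, with group means of 12.11 ± 0.12 and 12.07 ± 0.24 (log2, SD, n = 4 each). Mb, myoglobin, the oxygen store of oxidative fibres, read 6.62, 6.81, 6.60 and 6.77 on control arrays and 6.64, 6.47, 6.74 and 6.82 on labelled-null arrays. It did not follow Ckm, being highest on labelled-null array 4. Ckmt2 (mitochondrial creatine kinase), Eno3 (muscle enolase) and Pygm (glycogen phosphorylase) were highest on labelled-null array 3 and lowest on labelled-null array 4, with differences of 0.07, -0.03 and -0.02. They ran from 7.43 to 7.89, from 12.00 to 12.40 and from 10.65 to 11.29. Trim63, a ubiquitin ligase of muscle protein breakdown, ran from 6.92 to 7.20 and differed by 0.07.

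Most members, though few slow genes, shared a pattern over embryos. Of the 41 tested members, 31 were highest on labelled-null array 3 and 20 were lowest on labelled-null array 4, ties counted for each array, against 10.6% and 20.6% of all tested genes. Highest on labelled-null array 3 were 11 of 11 fast genes and 17 of 21 of no class, but 2 of 6 slow and 1 of 3 developmental genes. Lowest on labelled-null array 4 were 8 of 11, 11 of 21, 0 of 6 and 1 of 3. Labelled-null array 3 lay above the member's own 8-array mean for 39 of 41, and labelled-null array 2, control array 1 and labelled-null array 4 lay below it for 34, 33 and 32. Averaged over the 41, the deviation was 0.27 on labelled-null array 3 and -0.17 on labelled-null array 4, a span of 1.36-fold. It was -0.12 on labelled-null array 2 and -0.10 on control array 1, and lay between -0.05 and 0.09 on the other 4. The members are read from the same 8 RNAs, so they are not independent replicates of this pattern. The arrays at both ends belong to the same labelled group. Both read high for Xist, the RNA of the inactive X chromosome of females (12.17 and 12.10). So did control arrays 1 and 4 (12.24 and 12.27), against 4.86 to 5.39 on the other arrays. Whether the pattern goes with the label or with sex was not tested.

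**Figure D3:**
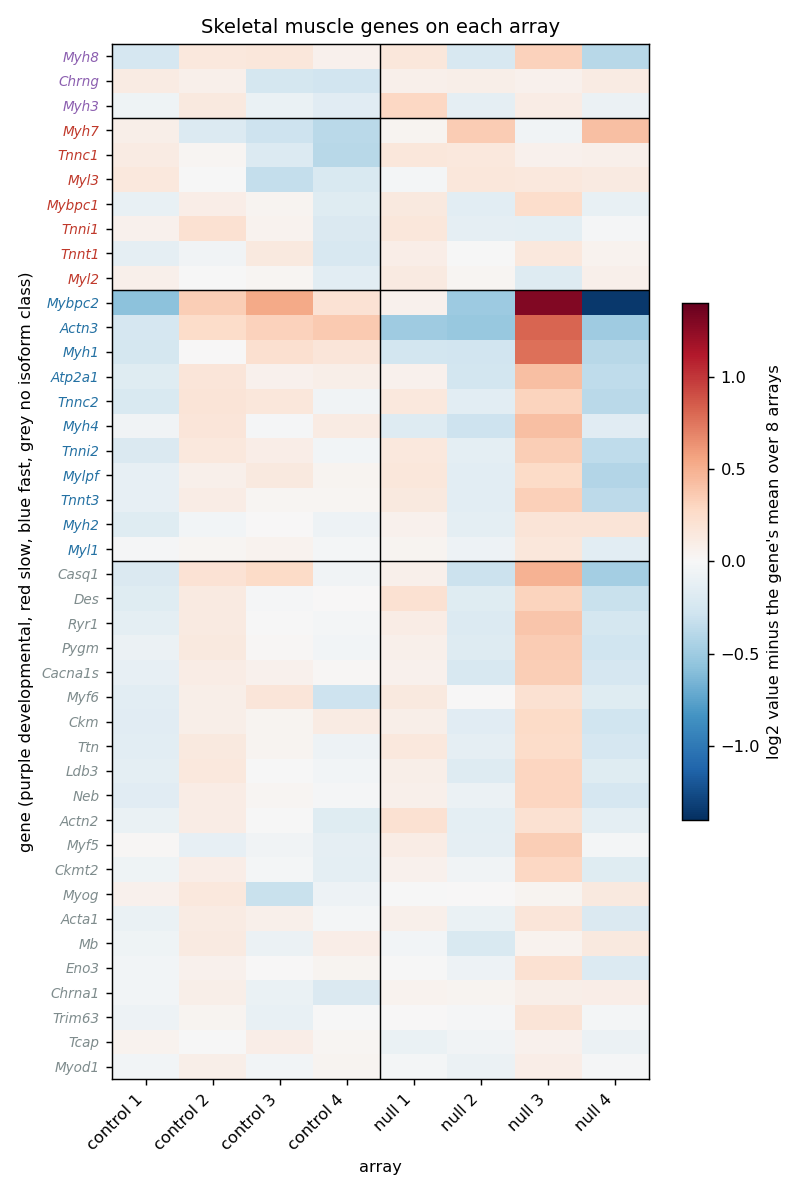
Deviation of each of the 42 members from its own mean over 8 arrays (colour, log2 units, red above and blue below), with arrays in columns and genes in rows grouped by isoform class. Labelled-null array 3 is red for nearly all fast genes and genes of no isoform class, and Mybpc2 reaches 8.78 there and 6.14 on labelled-null array 4.

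The members varied more between arrays of a group than most genes did. Their median pooled SD within groups was 0.18, against 0.10 over all tested genes, and 37 of 41 lay above that median of all genes. By class, the median SD was 0.25 for the 11 fast genes, 0.16 for the 6 tested slow genes, 0.16 for the 3 developmental genes and 0.17 for the 21 genes of no class. The SD was larger among labelled-null than among control arrays for 33 of 41 members and for 56.5% of all tested genes. This held for 11 of 11 fast genes and for 2 of 6 slow genes. Whether the spread itself differs between genotypes was not tested. With both control array 1 and labelled-null array 4 left out, the median SD was 0.17 over members and 0.09 over all tested genes. Without labelled-null array 3 it was 0.16 over members and 0.18 over fast genes.

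**Figure D4:**
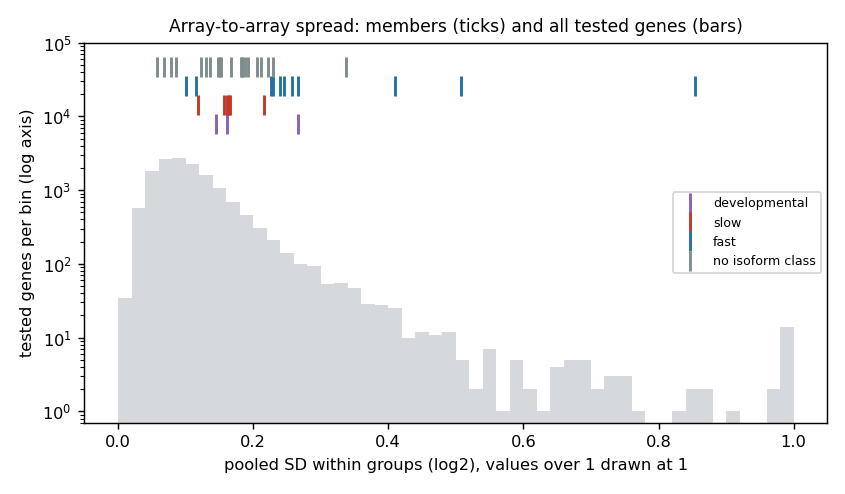
Pooled SD within groups (horizontal axis, log2 units) of all 15174 tested genes as bars (number of genes per bin, log axis) and of the 41 tested members as ticks coloured by isoform class; SDs over 1 are drawn at 1. The median is 0.18 for members and 0.10 for all tested genes, and the 3 ticks farthest to the right are the fast genes Myh1, Actn3 and Mybpc2.

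Fast and slow isoforms followed different courses over the embryos. The mean deviation of the 11 fast genes was -0.19, 0.13, 0.14 and 0.07 on control arrays 1 to 4 and -0.01, -0.24, 0.48 and -0.38 on labelled-null arrays 1 to 4. Labelled-null array 3 was the highest for 11 of 11 fast genes, with Myh2 tied, and labelled-null array 4 the lowest for 8 of 11. The 6 slow genes read 0.03, 0.02, -0.10 and -0.26 on control arrays and 0.09, 0.06, 0.07 and 0.09 on labelled-null arrays. Control array 4 was the lowest for 5 of 6 slow genes and for 13.7% of all tested genes. The labelled-null arrays were close to each other for the slow mean. The mean of the 3 developmental genes ran from -0.12 on control array 4 to 0.17 on labelled-null array 1, but these genes did not share a course. Myh8 was highest on labelled-null array 3 and lowest on labelled-null array 4, as most fast genes were. Myh3 was highest on labelled-null array 1 and Chrng on control array 1, and both were lowest on control array 4. The fast mean minus the slow mean was therefore lowest on labelled-null array 4 (-0.47), labelled-null array 2 (-0.30) and control array 1 (-0.22), and highest on labelled-null array 3 (0.41) and control array 4 (0.34).

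Under the null label, the slow class mean lay above control and the fast class mean below it. For the slow class all 4 labelled-null arrays (0.06 to 0.09) lay above all 4 control arrays (-0.26 to 0.03), a difference of 0.16 beside a pooled SD of 0.10. Taken alone, each of the 6 slow genes had overlapping groups, and Tnni1 lay below control (-0.06). For the fast class the groups overlapped, with a difference of -0.08 beside a pooled SD of 0.29. These class means were not tested, and the lowest slow value was that of control array 4. Of 6 slow genes 5 lay above control, with a median difference of 0.17, and of 11 fast genes 9 lay below, with a median of -0.06. Of 3 developmental genes 2 lay above, with a median of 0.10. The fast minus slow value was 0.12 ± 0.24 on control and -0.12 ± 0.38 on labelled-null arrays (SD, n = 4 each). Among pairs of a slow gene and its fast partner, slow minus fast differed between groups by 0.26 for troponin C, -0.06 for troponin I, 0.16 for troponin T, 0.32 for Mybpc1 and Mybpc2 and 0.21 for Myl3 and Myl1. Slow Myh7 minus developmental Myh8 differed by 0.45. As deviations from the pair's own mean, all 6 of these differences were highest on labelled-null array 4, at 0.27 to 1.25. The fast median was -0.16 without labelled-null array 3 and 0.06 without labelled-null array 4, so its sign rested on single arrays, while the slow median kept its sign, at 0.11 to 0.20 without 1 array. With control array 1 and labelled-null array 4 both left out, it was 0.20 for slow and 0.00 for fast genes.

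With the mean of the 21 genes of no isoform class as a covariate, a fit chosen after the data were seen, 0 of the 20 tested developmental, slow and fast members passed limma over all genes. The difference of Myh7 was then 0.41 (SE 0.09, limma adjusted p = 0.393), and its adjusted p over all alternatives ran from 0.393 to 0.99996. That of Actn3 was -0.41 (limma adjusted p = 0.990).

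**Figure D5:**
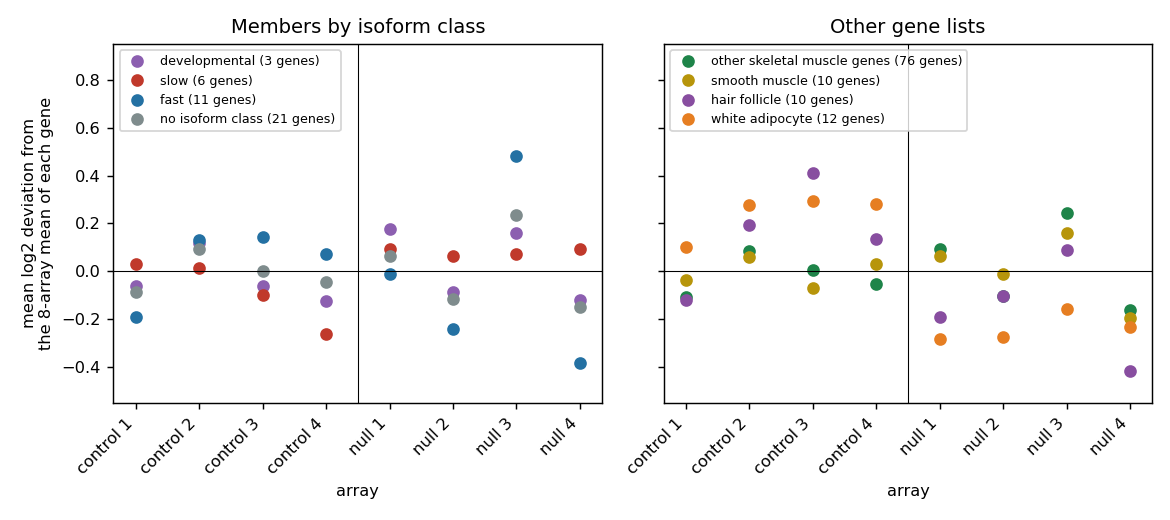
Mean log2 deviation from each gene's own 8-array mean (vertical axis) on every array (horizontal axis), for the members by isoform class (left) and for other gene lists (right); each point is the mean over the tested genes of a list on 1 array. Fast genes range from -0.38 on labelled-null array 4 to 0.48 on labelled-null array 3, whereas white adipocyte genes separate the labelled groups.

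Muscle genes outside the 42 were read from lists of their own. In lists of other sarcomere, membrane, calcium, synapse and energy genes, 76 genes were measured and tested. By limma 0 of the 76 passed and 2 had an unadjusted p under 0.05, where 3.61% of all tested genes did. Of the 76, 51 lay above and 25 below control, and the median difference was 0.04. Over all tested genes 7536 lay above and 7638 below control. The 2 with an unadjusted p under 0.05 were the cardiac and embryonic troponin T gene Tnnt2 (0.16, limma adjusted p = 0.9995) and Sln, sarcolipin, an inhibitor of the calcium pump (0.25, limma adjusted p = 0.9995). The mean deviation of the 76 genes was 0.25 on labelled-null array 3, -0.16 on labelled-null array 4, -0.11 on control array 1 and -0.10 on labelled-null array 2. Of the 76 genes, 51 were highest on labelled-null array 3 and 32 lowest on labelled-null array 4. Of 20 genes of muscle stem cells, lineage and fusion, 0 passed limma and 0 had an unadjusted p under 0.05, with 15 above control and a median of 0.03. Of these 20, 8 were highest on labelled-null array 3 and 5 lowest on labelled-null array 4, with mean deviations of 0.13 and -0.08. Pax7, which marks muscle stem cells, differed by 0.04, and Mymk, myomaker, needed for fusion, by 0.08.

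Lists of other cell types differed in whether they moved with the muscle genes. The 10 smooth muscle genes had a mean deviation of 0.16 on labelled-null array 3 and -0.19 on labelled-null array 4, where 8 of 10 were lowest. The 10 hair follicle genes read -0.12, 0.19, 0.41 and 0.14 on control arrays and -0.19, -0.10, 0.09 and -0.42 on labelled-null arrays, and labelled-null array 4 was below the gene's own mean for 10 of 10. By limma 0 of the 10 passed, and 3 had an unadjusted p under 0.05, where 3.61% of all tested genes did. The median difference was -0.20. The mean of the 6 tested suprabasal epidermis genes was highest on labelled-null array 4 (0.28), where 6 of 6 lay above their own mean and 3 of 6 were highest. That array was also the highest for 22.3% of all tested genes. The mean of the 10 dermal fibroblast genes lay between -0.11 and 0.06, and on labelled-null array 4 these genes were below their own mean for 10 of 10 and lowest for 7 of 10. The mean of the 8 cardiac genes lay between -0.08 and 0.09. The part of these tissues in the muscle values was not tested. The mean of the white adipocyte genes lay between 0.10 and 0.29 on control arrays and between -0.29 and -0.16 on labelled-null arrays. Of 12 tested, 4 passed limma (Cd36, Fabp4, Lpl and Aqp7), where 0.119% of all tested genes passed. In the same RNAs the muscle members averaged 0.02 higher under the null label and the adipocyte genes differed by -0.48.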

How the data were processed

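Total RNA of each skin sample (100 ng) was amplified, and, per the labels' protocols, biotin was added to 5.5 μg of fragmented cDNA. The authors deposited log2 values per transcript cluster. The submitters' processing notes name RMA and Affymetrix Expression Console. RMA subtracts background, quantile-normalizes arrays and summarizes probes, which hides any change common to all transcripts. For versions, annotation build and filters, nothing is given in the sources used here. Array medians lay between 6.93 and 6.96, and the number of arrays limits the precision.

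Of 35556 clusters, 21789 had 1 gene symbol, 1621 several and 12146 none listed. Symbols were updated by gene ID for 21698 clusters (RefSeq, GRCm38.p6). A gene was represented by its brightest cluster, and it was tested when this exceeded the array's 30th percentile on 4 or more of the 8 arrays. This kept 15174 of 19938 genes. Differences are labelled-null minus control, from limma 3.58.1 (R 4.3.3), two-sided, with no covariate, Benjamini-Hochberg adjustment over all tested genes and a threshold of 0.05. On simulated data for this comparison (15174 genes) the fit recovered 81% of genes changed by 0.5 and 97% of genes changed by 1 (log2), with 5 false calls. The changed genes were drawn from all tested genes, and the noise was independent between genes. The members had a larger median SD (0.18 against 0.10) and moved together over arrays, so these shares do not give the recovery for muscle genes. Spread is the SD pooled over both groups. Members and lists were chosen from general knowledge, with earlier results of these data known. Values on every array are given for the myosin heavy chains, the troponins, Myod1, Myog, Chrng, Acta1, Ckm and Mb, and for members with extreme differences or spread. Other members are given by range. Up to 3 genes of each other list, those with the smallest unadjusted p, could be named with values. Myh6, Pax7 and Mymk were named outside that rule, after their values were seen. Alternatives were no filter or one at the 50th percentile, arrays centred on their medians, cyclic loess, eBayes with a robust trended prior, array weights, the replicate number as a block, the mean of a gene's clusters, Xist as a covariate, an adjusted p of 0.10, and arrays left out singly or as a pair. The muscle mean as a covariate, and the spread with arrays left out, were added after the data were seen.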

Additional observations from a re-analysis of the deposited data

Results flagged for a closer look

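Each member, and each of 5 averages over members, was examined for a stray array among the 4 of a group, which makes 94 groups. Chance alone would mark about 1 in 20, or 5. There were 2, both of fast-fibre genes and both due to labelled-null array 3. Actn3 read 8.30 there, while labelled-null arrays 1, 2 and 4 lay between 6.95 and 6.99, so that the gap took up 0.974 of the group's whole range. Myh1 read 7.53 there, with its 3 companions between 6.37 and 6.51 and a gap of 0.886.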

How the results depend on the processing

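The count of members past the threshold stayed at 0 under every alternative run, also at an adjusted p of 0.10 (limma). The lowest adjusted p of a member was 0.272 with 1 array left out and 0.393 otherwise. Over all tested genes the count was 18. It was 11 with Xist as a covariate, 1 with the replicate number as a block, and 3 to 15 with 1 array left out, moving by over 1.5 times for every array except control array 1 and labelled-null array 4. Nothing showed that replicate numbers pair arrays. The deviations of same-numbered arrays correlated at -0.31, 0.20, 0.05 and -0.03, and no control array correlated best with its own number. Of 424 differences of members under the other alternatives, 415 kept their sign. Leaving out control array 1 and labelled-null array 4 at once turned Cacna1s (0.00165), Eno3 (0.010), Myl1 (0.030), Mylpf (0.012), Pygm (0.042), Tnnc2 (0.0049) and Tnnt3 (0.051). Array weights turned Ldb3 (-0.00876), and the mean of the 21 genes of no class as a covariate, added after the data were seen, turned Tnni2 (-0.028). With 1 array left out at a time, the differences of these members changed sign within the ranges Acta1 -0.093 to 0.032, Atp2a1 -0.22 to 0.037, Cacna1s -0.15 to 0.045, Casq1 -0.29 to 0.03, Ckm -0.13 to 0.047, Ckmt2 -0.020 to 0.13 and Des -0.082 to 0.13. The same held for Eno3 -0.11 to 0.028, Ldb3 -0.084 to 0.078, Mb -0.086 to 0.031, Mybpc1 -0.0037 to 0.13, Mybpc2 -0.72 to 0.15, Myh1 -0.34 to 0.045 and Myh8 -0.19 to 0.051. Sign changes were also found for Myl1 -0.065 to 0.039, Mylpf -0.16 to 0.061, Myod1 -0.054 to 0.0062, Myog -0.0034 to 0.15, Neb -0.073 to 0.11, Pygm -0.14 to 0.072 and Ryr1 -0.10 to 0.11. The last of these were Tnnc2 -0.15 to 0.084, Tnni1 -0.13 to 0.0052, Tnni2 -0.11 to 0.12, Tnnt3 -0.14 to 0.094 and Ttn -0.056 to 0.11. In all 56 of 328 such values changed sign, and the cause was not tested. The number of arrays limits all of these values, and signal near the filter limits Myl2, Myh2, Myh4 and Myf5, and Myh6 outside the members.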
